A study of Mus musculus with 4 samples.

Results

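The regions described here are 487 stretches of chromatin inside genes that were called as accessible at a strict threshold in mouse intestinal organoids before BMP2 exposure and were not called even at a lenient one after 72 h of it. They were selected on measured values, namely the authors' peak calls: a peak of the 0 h library at the strict threshold of 1e-10 that no 72 h peak at the lenient threshold of 1e-05 overlapped by even 1 bp. In addition the midpoint had to lie on chromosomes 1 to 19 or X, inside a protein-coding RefSeq gene body, and more than 1 kb from every end of a protein-coding gene. The 0 h library held 19910 strict peaks, of which 1268 on these chromosomes were 0 h-only; the 487 regions were 38.4% of those (95% interval 35.7 to 41.1). All 487 stood in the authors' own list of regions enriched at 0 h. Of the 4633 strict 0 h peaks inside genes that a 72 h peak overlapped, 0 stood in it. The list thus divides these peaks as the rule does, and the match is no separate evidence. All 487 regions spanned 601 bp, a midpoint with 300 bp on either side. They lay in 453 host genes.

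The libraries were made from crypt-derived organoids of C57BL/6J mouse jejunum, taken from the proximal part of the small intestine, with 30000 cells in each. The 72 h organoids had been without CHIR99021 (which blocks GSK3 and so stimulates the Wnt pathway), valproic acid (which blocks histone deacetylases) and Noggin (which sequesters BMPs), and had received 100 ng/mL BMP2 while keeping epidermal growth factor and R-spondin. The 0 h organoids stayed in the full medium with CHIR99021, valproic acid, epidermal growth factor, Noggin and R-spondin, so the effects of BMP2 and of the 3 withdrawn factors cannot be told apart. Each time point is 1 library, and libraries of 24 h and 48 h are not used here. With no replicates, no test between the libraries was possible; the intervals below are exact Clopper-Pearson 95% intervals and cover counting error only.

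ATAC-seq cuts accessible DNA with the Tn5 transposase, so a peak marks a stretch that is depleted of nucleosomes in at least part of the cells. Accessible sites inside genes include enhancers, other distal regulatory elements and internal promoters, from which shorter transcripts of the host or of another gene start. Enhancers commonly open and close with cell state, whereas promoters rich in CpG dinucleotides tend to be open in many cell types. In the intestine, Wnt signalling maintains crypt stem cells and BMP signalling is strongest toward the villus, where enterocytes mature.

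At 1e-05 the lists held 41343 peaks at 72 h and 35857 at 0 h, and at 1e-10 they held 25040 at 72 h and 19910 at 0 h. The lists give no height or read count, so the depth of both libraries is unknown and "0 h-only" is a difference in calling, not a measured fold. All 8 epithelial markers examined (Epcam, Cdh1, Krt8, Krt18, Krt19, Cldn7, Cdx2 and Vil1) had a peak within 1 kb of a gene end in both libraries. Among markers of other cells, such a peak was present at 0 of 14 endothelial genes at 72 h and at 5 of 14 at 0 h (Kdr, Flt1, Flt4, Erg and Prox1). For immune markers the numbers were 4 of 18 at 72 h and 7 of 18 at 0 h, for fibroblast and muscle markers 2 of 22 at 72 h and 3 of 22 at 0 h, and for neuronal markers 6 of 35 at 72 h and 8 of 35 at 0 h. No share over all genes was counted beside these numbers. A general difference in calls at gene ends therefore cannot be set apart from one of cell types. In bulk samples fewer cells of a type and less accessibility per cell cannot be told apart, and the part of cell makeup in the results below was not tested.

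Some of the regions held a transcript start inside a gene body, though not always a second promoter of the host. A listed RefSeq transcript start lay inside 39 of the 473 regions on chromosomes covered by the start table, 8.25% (5.93 to 11.1), and in 28 of the 39 it was a start of the host gene itself. For 10 of the 39 the start belonged to a non-coding gene, and for the remaining region, inside the enolase gene Eno3, to the neighbouring profilin gene Pfn1. The sequences around 6 of these starts are shown because they span the range of situations found; they were chosen after their values were seen. Each is the RefSeq window (GRCm38.p6, the assembly that mm10 denotes) running from 250 bases before to 50 bases after the listed start, 5′ to 3′ on the strand of the gene, with CpG dinucleotides in capitals. Srebf1 encodes a transcription factor that drives lipid synthesis, and Elavl2 an RNA-binding protein best known from neurons; both genes kept another start inside a peak at 72 h. The windows are chr11:60220578-60220877 on the minus strand for Srebf1 and chr4:91371991-91372290 on the minus strand for Elavl2.
Srebf1: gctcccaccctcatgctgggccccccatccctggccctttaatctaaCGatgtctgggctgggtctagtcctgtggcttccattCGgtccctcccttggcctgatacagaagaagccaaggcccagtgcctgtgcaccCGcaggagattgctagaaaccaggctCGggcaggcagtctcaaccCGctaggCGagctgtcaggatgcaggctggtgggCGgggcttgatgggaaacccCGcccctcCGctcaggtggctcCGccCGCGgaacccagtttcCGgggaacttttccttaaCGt
Elavl2: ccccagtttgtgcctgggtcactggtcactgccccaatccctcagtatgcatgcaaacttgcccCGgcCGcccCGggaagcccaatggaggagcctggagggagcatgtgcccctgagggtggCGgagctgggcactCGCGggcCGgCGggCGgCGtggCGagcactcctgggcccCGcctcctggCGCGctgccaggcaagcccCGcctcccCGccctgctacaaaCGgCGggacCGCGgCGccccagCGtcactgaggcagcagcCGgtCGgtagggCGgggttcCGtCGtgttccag
Lifr encodes the receptor for leukaemia inhibitory factor, and Cav1 the coat protein of caveolae; both gene bodies held no 72 h peak at all. Their windows are chr15:7129322-7129621 on the plus strand for Lifr and chr6:17307390-17307689 on the plus strand for Cav1.
Lifr: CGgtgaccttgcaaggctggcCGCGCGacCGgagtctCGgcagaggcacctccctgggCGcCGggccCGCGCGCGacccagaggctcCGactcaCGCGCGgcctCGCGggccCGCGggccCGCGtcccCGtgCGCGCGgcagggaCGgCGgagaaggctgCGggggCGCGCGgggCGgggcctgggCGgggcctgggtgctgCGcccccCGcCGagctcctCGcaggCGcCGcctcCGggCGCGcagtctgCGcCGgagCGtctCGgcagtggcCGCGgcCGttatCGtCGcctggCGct
Cav1: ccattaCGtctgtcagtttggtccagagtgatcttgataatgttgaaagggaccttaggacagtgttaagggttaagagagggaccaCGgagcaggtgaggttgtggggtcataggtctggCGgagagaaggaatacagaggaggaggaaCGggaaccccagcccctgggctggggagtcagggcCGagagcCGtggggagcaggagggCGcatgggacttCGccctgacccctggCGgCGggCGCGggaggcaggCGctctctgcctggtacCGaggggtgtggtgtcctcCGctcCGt
Wnt5b encodes a Wnt ligand of the non-canonical kind, and Trim2 a ubiquitin ligase; their windows are poor in CpG. They lie at chr6:119449337-119449636 on the minus strand for Wnt5b and at chr3:84270734-84271033 on the minus strand for Trim2.
Wnt5b: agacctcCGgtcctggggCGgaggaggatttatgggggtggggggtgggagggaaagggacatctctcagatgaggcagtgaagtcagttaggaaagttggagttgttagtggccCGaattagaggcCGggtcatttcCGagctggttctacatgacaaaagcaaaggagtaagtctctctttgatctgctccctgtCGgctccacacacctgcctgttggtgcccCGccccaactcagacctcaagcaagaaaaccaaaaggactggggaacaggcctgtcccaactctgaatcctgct
Trim2: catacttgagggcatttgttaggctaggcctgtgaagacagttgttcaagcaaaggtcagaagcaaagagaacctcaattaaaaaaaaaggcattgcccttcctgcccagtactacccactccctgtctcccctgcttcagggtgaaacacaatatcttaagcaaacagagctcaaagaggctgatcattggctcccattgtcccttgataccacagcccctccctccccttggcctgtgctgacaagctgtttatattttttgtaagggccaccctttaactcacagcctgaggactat

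The number of CpG dinucleotides in these windows varied widely, with 53 in the Lifr window, 27 in Elavl2, 16 in Cav1, 14 in Srebf1, 7 in Wnt5b and 0 in Trim2. Over the 39 windows in 0 h-only regions the median GC content was 60.0%, against 62.7% in 1028 windows whose start lay in a shared 0 h strict region inside a gene. In 39 windows at starts inside 72 h-only strict regions it was 49.3%, and over all 32619 windows of the table it was 53.0%. The median ratio of observed to expected CpG was 0.641 in the 0 h-only regions, 0.767 in the shared and 0.274 in the 72 h-only regions, and 0.387 in the whole table. Windows with at least 50% GC and a ratio of at least 0.6, called CpG-rich here, were 21 of 39 in 0 h-only regions (53.8%, 37.2 to 69.9) and 745 of 1028 in shared regions (72.5%, 69.6 to 75.2). In 72 h-only regions 5 of 39 were CpG-rich (12.8%, 4.30 to 27.4), and the interval does not overlap that of the 0 h-only windows. CpG-rich windows were thus more frequent at starts called at 0 h only than at starts called at 72 h only.

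The split remained visible for regions with no peak of the other library close by. Where the nearest peak of the other library was 1 kb or more away, 13 of 27 windows in 0 h-only regions were CpG-rich (48.1%, 28.7 to 68.1), against 3 of 33 in 72 h-only regions (9.09%, 1.92 to 24.3). Where it was under 1 kb away, 8 of 12 windows in 0 h-only regions were CpG-rich, against 2 of 6 in 72 h-only regions.

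**Figure D1:**
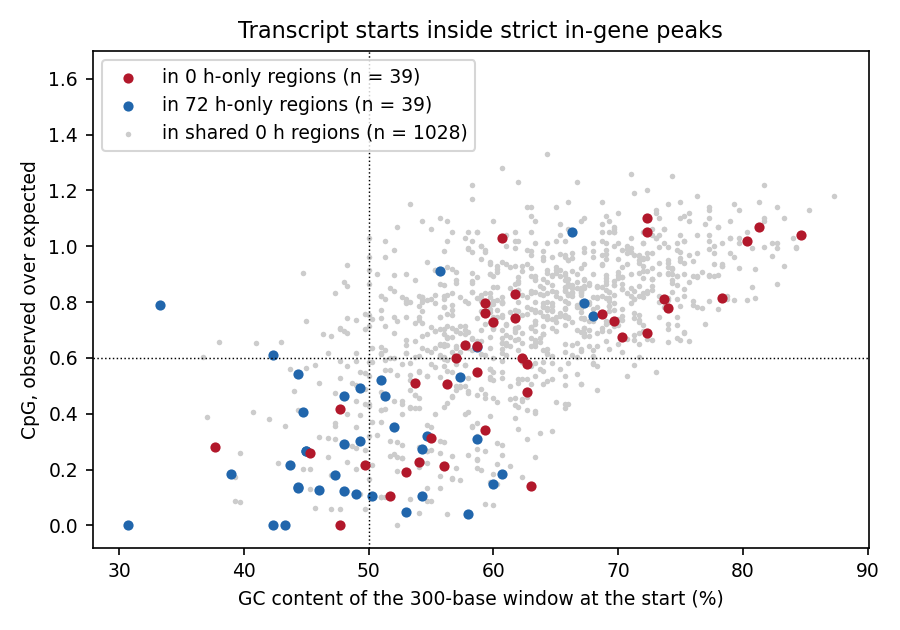
Each point is the 300-base window at a transcript start inside a strict peak in a gene, plotted by its GC content (%, x axis) and its ratio of observed to expected CpG (y axis), for starts in 0 h-only (red), 72 h-only (blue) and shared 0 h regions (grey). Dotted lines mark the limits used to call a window CpG-rich; 21 of the 39 red points and 5 of the 39 blue points lie at or beyond both limits.

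Short motifs were searched on both strands of the same windows; a match is only the letters. The KLF/SP letters GGGCGG or GGGTGTG, read by a family of factors that bind GC-rich promoters, were in 22 of 39 windows of 0 h-only regions (56.4%, 39.6 to 72.2). They were in 71.9% of the windows of shared regions, 30.8% of those of 72 h-only regions (17.0 to 47.6) and 40.8% of all windows. The HNF4 letters AAAGTNCA, where HNF4 is a nuclear receptor of enterocytes, were in 0 of 39 windows of 0 h-only regions (upper bound 9.03%). They were in 8 of 39 windows of 72 h-only regions (20.5%, 9.30 to 36.5), 2.24% of those of shared regions and 4.14% of the table. The GATA letters AGATAA were in 2 of 39 windows of 0 h-only regions (5.13%, 0.627 to 17.3) and in 10 of 39 of 72 h-only regions (25.6%, 13 to 42.1). In shared regions they were in 5.16% of windows, with 11.2% over the table. The intervals of 0 h-only and 72 h-only regions overlap for GATA, and for HNF4 the lower bound at 72 h-only, 9.30%, is just above the upper bound of 9.03%. For both motifs the share in shared regions lies inside the 0 h-only interval and below the 72 h-only one. The TCF/LEF letters ATCAAAG or TTCAAAG, read by the nuclear effectors of Wnt signalling, were in 3 windows of 0 h-only regions, namely Wnt5b, Ccser2 and Stard8, which is 7.69% (1.62 to 20.9) against 15.4% in 72 h-only regions (6 of 39, 5.86 to 30.5) and 8.68% over the table. The AP-1 letters TGANTCA were in 10.3% of windows of 0 h-only regions (2.87 to 24.2), 5.13% of those of 72 h-only regions and 7.85% of the table. In shared regions the TCF/LEF letters were in 5.25% of windows and the AP-1 letters in 5.54%. Other motifs were counted too and are not all given. The ETS letters CCGGAAG were in 1 of 39 windows each of 0 h-only and 72 h-only regions (2.56%, 0.0649 to 13.5). In shared regions they were in 15.1%, above that interval, and in the table in 8.92%. The SMAD letters GTCTNGAC were in 0 of 39 windows of 0 h-only and 1 of 39 of 72 h-only regions, against 2.24% in shared regions. The sets of windows differ in GC content, as given above, and its part in the motif counts was not tested.

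The other starts of the same genes stood in different states. Of the 28 regions with a start of their own host, 19 hosts had another listed start outside their 0 h-only region, and in 10 of these 19 another start lay within 300 bp of a peak midpoint in each library. Srebf1 was of this kind: the midpoint of the 0 h-only region lay 15 bp from the start shown above and the edge of the region 1.96 kb from that of the nearest 72 h peak, while of its 2 other starts 1 lay in a 72 h peak and 2 in a 0 h peak. In Elavl2 the midpoint lay 1 bp from the start, the gap between the region's edge and that of the nearest 72 h peak was 2.43 kb, and of its 3 other starts 2 lay in a 72 h peak and 2 in a 0 h peak. Akap7, which encodes an anchor for protein kinase A, had a gap of 1.42 kb between its region and a 72 h peak, and its other start lay 96.9 kb from the internal one in a peak of both libraries. Etv5, an ETS factor acting downstream of growth factor signalling, had a region midpoint 141 bp from the start, a gap of 0.623 kb to the nearest 72 h peak, and its other start, 1.20 kb away, in a peak of both libraries.

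In 6 of the 19 hosts no other start lay in a peak of either library. Lifr belonged here: the midpoint of its region coincided with the start (0 bp apart), the gap to the nearest 72 h peak was 96.2 kb, and the gene body held 0 peaks at 72 h and 1 at 0 h. Cav1 also had 0 peaks at 72 h and 1 at 0 h, with a gap of 25.7 kb, and so did Gcnt1, which encodes an enzyme of O-glycan branching, with a gap of 36.7 kb. Wnt5b had a gap of 4.36 kb and held 5 peaks at 72 h and 5 at 0 h in the body, the 0 h-only region included. In 2 hosts, Olfm1 and Trim2, another start lay in a 0 h peak and none in a 72 h peak, and in 1, Ppt2, the reverse was found. These calls depend on the limit of 300 bp to a peak midpoint. In Ppt2 all 3 other starts had a 0 h midpoint within 1 kb, and the region lay 0.114 kb from a 72 h peak. In Trim2 1 of the 4 other starts had a 72 h midpoint within 1 kb. Olfm1, which encodes a secreted olfactomedin protein, held 0 peaks at 72 h and 1 at 0 h in its body.

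Although internal starts were present, they were less frequent here than among the shared regions. A start lay inside 1059 of 4475 shared 0 h strict regions in genes, 23.7% (22.4 to 24.9), and inside 39 of 2110 strict regions found at 72 h only, 1.85% (1.32 to 2.52). The 0 h-only share of 8.25% lay between these, and none of the 3 intervals overlapped. Seen from the starts, 3.55% of strict 0 h regions in genes with a start were 0 h-only (39 of 1098, 2.54 to 4.82), against 11.3% of those without one (434 of 3850, 10.3 to 12.3). Among strict 72 h regions the shares that were 72 h-only were likewise 3.55% with a start (39 of 1100) but 32.6% without one (2071 of 6353).

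Most 0 h-only regions were distal and scattered. They made up 487 of the 5120 strict 0 h peaks inside genes, 9.51% (8.72 to 10.3), and the corresponding 72 h-only regions 2183 of 7716, 28.3% (27.3 to 29.3). The median distance of a 0 h-only region to the nearest gene end was 16.4 kb (quartiles 5.55 and 44.2), against 9.78 kb for shared 0 h regions and 17.9 kb for 72 h-only regions. The host genes were long, with a median of 94.6 kb per region against 64.0 kb for shared and 88.8 kb for 72 h-only regions. Where the strand was known, 97 of 386 regions lay in the first 10 kb of the host, 25.1% (20.9 to 29.8), against 41.2% of shared (39.6 to 42.8) and 22.9% of 72 h-only regions (20.9 to 24.9). In these measures of position the 0 h-only and 72 h-only regions were close to each other, and the shared ones lay nearer to gene ends.

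The share that was 0 h-only was higher farther into genes. It was 6.76% at 1 to 2 kb from the nearest gene end (54 of 799, 5.12 to 8.73), 6.86% at 2 to 5 kb (63 of 919) and 9.38% at 5 to 20 kb (155 of 1653). At 20 to 50 kb it was 11.2% (108 of 963) and beyond 50 kb 13.6% (107 of 786, 11.3 to 16.2). The 72 h-only share increased along the same bins and was above the 0 h-only share in every one, with 12.8% at 1 to 2 kb and 36.6% beyond 50 kb. By chromosome the 0 h-only share ran from 6.67% on the X chromosome (5 of 75) to 13.4% on chromosome 14 (25 of 187), and the interval of every chromosome included the overall 9.51%.

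**Figure D2:**
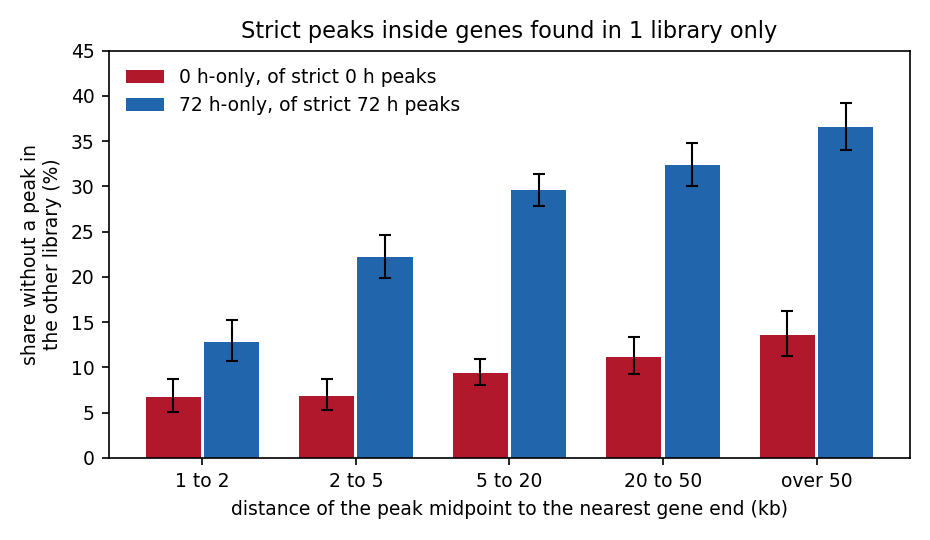
Bars give the percentage of strict peaks inside genes that no peak of the other library overlapped, for 0 h peaks (red) and 72 h peaks (blue), by distance of the peak midpoint to the nearest gene end in kb; error bars are exact 95% intervals. The red bars go from 6.76% in the nearest bin to 13.6% in the farthest, and the blue bars from 12.8% to 36.6%.

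The gap from a 0 h-only region to the nearest 72 h peak, measured between their edges, had a median of 9.57 kb (quartiles 2.67 and 26.0) and ran from 0.0210 to 1274 kb. The nearest other 0 h peak at 1e-05 was about as far, with a median of 9.03 kb between midpoints (quartiles 2.48 and 24.5). A wide gap can thus lie where peaks are sparse in both libraries. In 71 regions (14.6%) the gap was under 1 kb, in 181 (37.2%) it was 1 to 10 kb and in 235 (48.3%) it was 10 kb or more. The 71 close regions were often beside a persisting site: 36 had another 0 h peak within 1 kb, and in 33 that neighbour was itself shared with 72 h. They also held more starts, 12 of 69 (17.4%, 9.32 to 28.4), than the regions at 1 to 10 kb (11 of 177, 6.21%) or at 10 kb or more (16 of 227, 7.05%), although the intervals overlap. A peak of the other library closer than 601 bp, the width of 1 peak, was found beside 57 of the 0 h-only regions (11.7%, 8.99 to 14.9) and beside 94 of the 2183 72 h-only regions (4.31%, 3.49 to 5.24).

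The largest gaps were in Csmd1, which encodes a large membrane protein expressed in brain (1274 kb), the glypican gene Gpc6 (785 kb), the potassium channel gene Kcnn2 (594 kb), Fgf14 (572 kb) and the neural transcription factor gene Myt1l (475 kb). Between midpoints, the nearest other 0 h peak was also far in Csmd1 (1304 kb), Gpc6 (835 kb) and Fgf14 (572 kb). It was closer in Myt1l (84.2 kb) and Kcnn2 (0.225 kb). The smallest were in Kctd21 (21 bp), Myo3a (40 bp), Mtus1 (43 bp), Plekha6 (57 bp) and Gm36375 (58 bp). Just outside the overlap limit, strict 0 h peaks in Psd3, Ripor2 and Rtn4rl1 were overlapped by 1, 11 and 16 bp of a 72 h peak. Just inside the limit of 1 kb to gene ends lay the regions of Zmynd11 (1010 bp), Hnrnpa2b1 (1055 bp) and Etv5 (1061 bp). Just outside it lay those of the stem cell factor gene Ascl2 (965 bp), Nectin1 (947 bp) and Gm33887 (944 bp).

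**Figure D3:**
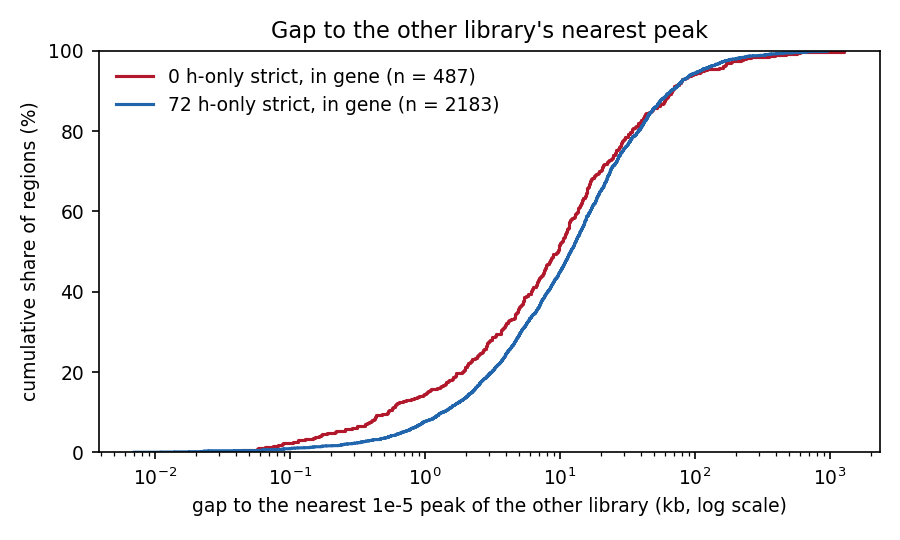
Lines give the cumulative percentage of regions (y axis) whose gap to the nearest peak of the other library is at most the value on the x axis (kb, log scale), for the 487 0 h-only (red) and 2183 72 h-only (blue) strict regions inside genes. The red line lies above the blue one at gaps under 10 kb, with 14.6% against 7.65% of regions under 1 kb, and the lines meet near 50 kb, at 85.6% and 85.8%.

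The regions were spread thinly over genes. Of the 3400 genes with a strict 0 h peak inside them 453 held a 0 h-only region, 13.3% (12.2 to 14.5), and of the 4407 genes with a strict 72 h peak inside 1640 held a 72 h-only region, 37.2% (35.8 to 38.7). A single region was found in 420 hosts, 2 in 32 hosts and 3 in the axonemal dynein gene Dnah2. After overlapping regions were merged, 33 genes held 2 sites and none held more.

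Among the hosts with 2 sites, Cdkal1, which encodes an enzyme that modifies transfer RNA, had 1 peak in its body at 72 h and 6 at 0 h. The sulfotransferase gene Chst8 had 1 peak at 72 h and 4 at 0 h. In the other named hosts with 2 sites the totals were closer, with 9 peaks at 72 h and 11 at 0 h in Abcc4, a drug and nucleotide exporter, 8 at 72 h and 9 at 0 h in Ctbp2, a transcriptional corepressor, and 9 at 72 h and 9 at 0 h in the scaffold gene Frmd4b. Coro1c, an actin-binding coronin, had 3 peaks at 72 h and 5 at 0 h. Dgkg, a diacylglycerol kinase, had 4 at 72 h and 5 at 0 h, and 2900026A02Rik 10 at 72 h and 13 at 0 h. Dnah2 itself had 5 peaks at 72 h and 7 at 0 h, and Ccdc192 3 at 72 h and 8 at 0 h.

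Over all 453 hosts the bodies held 1605 peaks at 72 h (median 2, range 0 to 23) and 1880 at 0 h (median 3, range 1 to 26). These totals include the regions themselves, so at least part of the surplus at 0 h follows from the selection. In 80 hosts (17.7%, 14.3 to 21.5) the body held no 72 h peak, and in 58 (12.8%, 9.87 to 16.2) there was none within 1 kb of it either. In 76 hosts (16.8%, 13.5 to 20.5) the 0 h-only regions were the only 0 h peaks with a midpoint in the gene body. Some of these, such as Klf4, had a further 0 h peak within 1 kb of the body. A 72 h-only strict region also lay in 116 hosts (25.6%, 21.6 to 29.9), so that gains and losses of calls were found within the same genes. Among the other genes with a strict 0 h peak inside, 590 of 2947 held one (20.0%, 18.6 to 21.5). The genes around 0 h-only regions were longer than those around shared regions, as given above, and the part of gene length in this difference was not tested.

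Genes with several 0 h peaks and none at 72 h in the body included regulators and matrix genes. Cdc42ep1, an effector of the GTPase Cdc42, had 0 peaks at 72 h and 4 at 0 h, although its start lay within 300 bp of a peak midpoint in both libraries. Col16a1, a collagen gene, Igfbp7, which encodes a secreted binding protein for growth factors, Trim71, a ubiquitin ligase of early development, Gprin1, Mpped2 and Kcng2 had 0 peaks at 72 h and 3 at 0 h each. The chloride channel gene Ano1, the Hedgehog co-receptor gene Cdon and Ahnak2 had 0 peaks at 72 h and 2 at 0 h each. With 1 kb on each side of the body included, Cdon and Ahnak2 each had 1 peak at 72 h and Ano1 had 0. At the other extreme, Lingo2 had 11 peaks at 72 h, 7 of them 72 h-only strict regions, and 1 at 0 h, and Fhit had 18 peaks at 72 h, 5 of them 72 h-only, and 6 at 0 h. Tnik, a kinase that acts with TCF4 in Wnt signalling, had 14 peaks at 72 h, 5 of them 72 h-only, and 5 at 0 h, Gramd3 10 at 72 h and 4 at 0 h, and the protease gene Sppl3 7 at 72 h and 3 at 0 h.

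**Figure D4:**
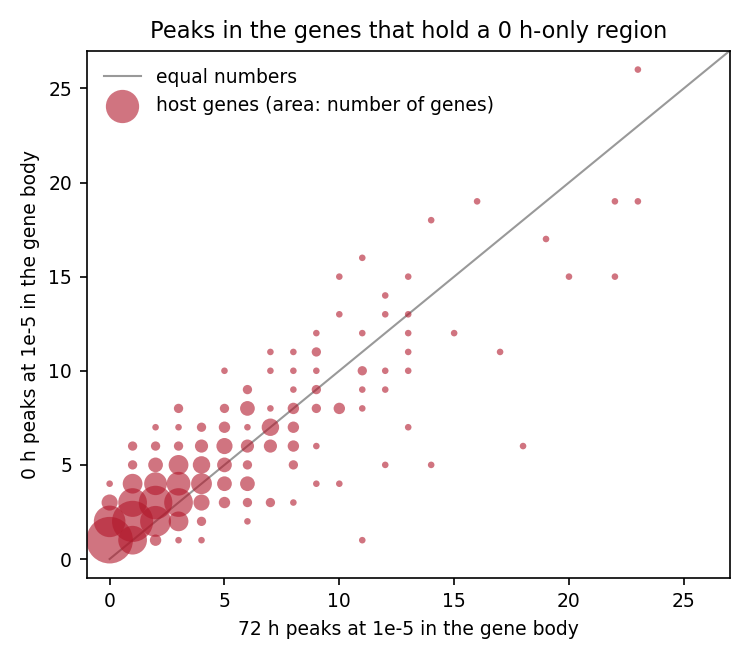
Each circle stands for the host genes with a given number of peaks at 1e-05 in the gene body in the 72 h library (x axis) and the 0 h library (y axis), and its area is proportional to the number of genes. The circles at 0 on the x axis are the 80 hosts with no 72 h peak in the body; the grey line marks equal numbers.

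The listed starts of the hosts outside their 0 h-only regions were examined separately. Such starts are not fully free of the selection. Some lie close to a region, which no 72 h peak may overlap, so 72 h calls near them are restricted. In Zmynd11, for example, another start lay 0.365 kb from the one in the region, and in Srpk2 0.493 kb. Of the 453 hosts 347 had a listed start outside their 0 h-only regions. In 191 of these (55.0%, 49.6 to 60.4) both libraries had a peak at such a start, not always at the same one, and in 113 (32.6%) neither library had one. In 7 hosts (2.02%, 0.815 to 4.11) a start of this kind lay in a 72 h peak and none in a 0 h peak, and in 36 hosts (10.4%, 7.37 to 14.1) one lay in a 0 h peak and none in a 72 h peak. Among the 1866 other genes with a strict 0 h peak inside and a start away from it, the shares were 4.39% for 72 h without 0 h (82 genes, 3.51 to 5.43) and 5.84% for 0 h without 72 h (109 genes, 4.82 to 7.0). The groups are not defined alike, which limits the comparison. Starts of hosts only had to lie away from the 0 h-only regions, those of the other genes away from their strict 0 h peaks inside the gene. Where the other library had to be free of peaks within 1 kb of the start, 3 hosts (0.865%) had a start called at 72 h only and 21 (6.05%, 3.78 to 9.10) one called at 0 h only. In the other genes these shares were 1.45% (27 genes) for 72 h only and 3.86% (72 genes, 3.03 to 4.83) for 0 h only, and for 0 h only the intervals then overlap. The 21 hosts included the retinoic acid receptor gene Rarb, the deacetylase gene Hdac7, the adaptor gene Grb10, the transcription factor genes Rreb1 and Arid5b, the collagen genes Col16a1 and Col18a1, Igfbp7, Olfm1, Mpped2 and Ptpn14, named here after their values were seen.

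Of the stem cell and Wnt genes with a strict 0 h peak inside, 7 of 24 held a 0 h-only region, 29.2% (12.6 to 51.1), against 13.3% of all such genes, which lies just inside that interval. With 72 h peaks at 1e-10 deciding what is shared it was 54.2% (32.8 to 74.4) against 30.8% of all genes. With a limit of 500 bp to gene ends it was 29.6% (13.8 to 50.2) against 12.3% of all genes. At both settings the share of all genes lies below the interval. At every other setting tried it lies inside. Examples are a limit of 2 kb to gene ends (14.2% of all genes, interval 13.9 to 54.9) and 0 h peaks at 1e-05 (38.6%, 33.5 to 69.2). It also lies inside when sharing required at least 50% of the 0 h peak to be covered (15.3%, 12.6 to 51.1). Of the stem cell and Wnt genes with a strict 72 h peak inside, 8 of 26 held a 72 h-only region, 30.8% (14.3 to 51.8), against 37.2% of all. The 7 genes were Ephb2 and Ephb3, receptors that position cells along the crypt, Rnf43 and Notum, both feedback inhibitors of Wnt signalling, Msi1, an RNA-binding protein of stem cells, Kcnq1, a potassium channel, and Tnik. In Ephb3 the region (chr16:21214709-21215309) lay 10.4 kb from the 5′ end of the gene and 9.81 kb from the nearest 72 h peak, which stood at the promoter. In Ephb2 the region (chr4:136829752-136830352) lay 6.27 kb into a gene of 189 kb and 5.36 kb from the nearest 72 h peak. The promoters of both receptors lay in a peak of both libraries.

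In Rnf43 the region (chr11:87680777-87681377) lay 18 kb from the 5′ end and only 0.60 kb from a 72 h-only strict region, and the gene held 6 peaks at 72 h and 7 at 0 h. The gap was also under 1 kb in Notum (chr11:120658732-120659332, 0.974 kb) and Msi1 (chr5:115430946-115431546, 0.972 kb). With a gap of at least 1 kb required, 4 of 24 genes remained with a region, 16.7% (4.74 to 37.4), against 11.6% of all genes under the same requirement. In Kcnq1 (chr7:143122041-143122641) the gap was 13.6 kb and in Tnik (chr3:28591279-28591879) it was 4.62 kb.

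**Figure D5:**
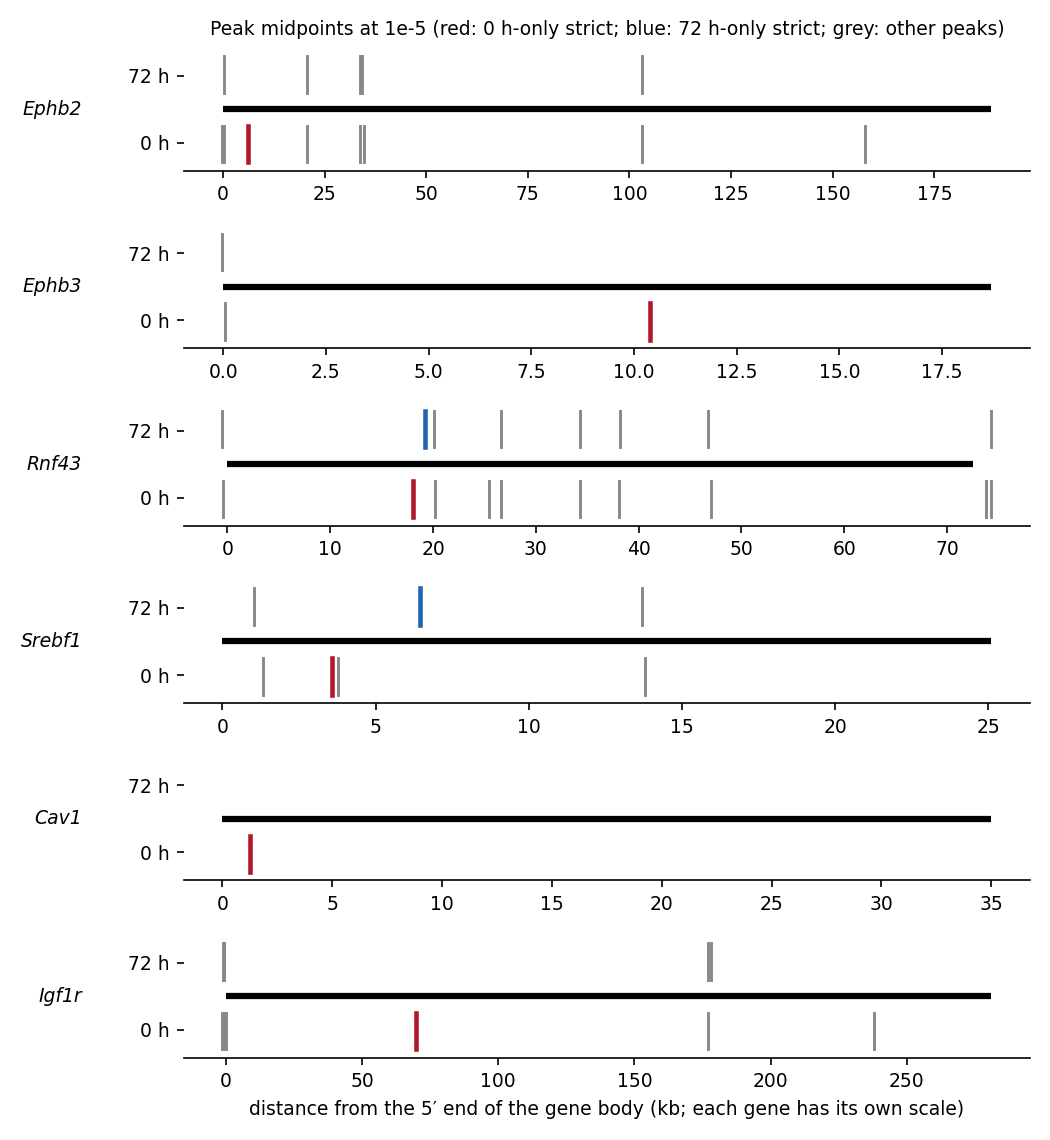
Vertical ticks mark the midpoints of peaks at 1e-05 along 6 host genes, drawn as black bars from the 5′ end (x axis, kb, own scale for each gene), with the 72 h library above and the 0 h library below each bar. Red ticks are 0 h-only and blue ticks 72 h-only strict regions in genes; Ephb3 shows a red tick at 10.4 kb and a 72 h midpoint only at the 5′ end, and Cav1 a red tick at 1.25 kb as its only peak.

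Growth factor and Notch pathway genes were represented by single regions. Of the EGF and MAP kinase list 5 of 18 genes held one (27.8%, 9.69 to 53.5), again with 13.3% inside the interval. Of the genes of this list with a strict 72 h peak inside, 6 of 20 held a 72 h-only region (30.0%, 11.9 to 54.3). The genes with a 0 h-only region included the receptor genes Erbb2 (gap 6.09 kb), Erbb3 (0.114 kb) and Igf1r (69.7 kb) and Etv5 (0.623 kb). Igf1r, the receptor for insulin-like growth factor, held its region 69.7 kb from the 5′ end and had 2 peaks in the body at 72 h and 4 at 0 h. The Erbb3 region overlapped the annotated hairpin of the microRNA Mir6917. Of the Notch and Eph list 4 of 15 genes held a region (26.7%, 7.79 to 55.1, with the 13.3% of all genes inside). A 72 h-only region was held by 4 of 14 (28.6%, 8.39 to 58.1). The 4 with a 0 h-only region were Ephb2 and Ephb3 as above, the receptor gene Notch2 (gap 0.538 kb, 1 peak in the body at 72 h and 5 at 0 h) and Maml3, a coactivator of Notch (7.15 kb). Of the BMP and TGF-beta list 1 of 14 genes held one (7.14%, 0.181 to 33.9) and 6 of 19 a 72 h-only one (31.6%, 12.6 to 56.6), with the 13.3% and 37.2% of all genes inside these intervals. The gene with a 0 h-only region was the ligand gene Bmp7, with a gap of 0.610 kb and 3 peaks in the body at 72 h and 4 at 0 h.

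Enterocyte genes, like genes at large, held a 0 h-only region less often than a 72 h-only one. Of the pooled enterocyte, brush border and lipid lists, 8 of 37 genes with a strict 0 h peak inside held a 0 h-only region, 21.6% (9.83 to 38.2), against 13.3% of all, inside the interval. Of those with a strict 72 h peak inside, 37 of 60 held a 72 h-only region, 61.7% (48.2 to 73.9), against 37.2% of all, which lies below the interval. The 8 genes were the peptidase gene Dpp4 (gap 7.06 kb, 6 peaks in the body at 72 h and 3 at 0 h), the actin regulator gene Eps8 (13.6 kb, 10 at 72 h and 8 at 0 h), the microvillus gene Baiap2l2 (3.33 kb), the acyl-CoA synthetase gene Acsl5 (9.84 kb), the phosphatidate phosphatase gene Lpin1 (17.9 kb), the nucleoside transporter gene Slc28a1 (42.7 kb), Srebf1 and Klf4. Dpp4 and Eps8 each also held 2 72 h-only strict regions, so sites called at 0 h only and at 72 h only lay in the same enterocyte genes. Slc28a1 had 0 peaks in its body at 72 h and 1 at 0 h, the 0 h-only region itself.

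Klf4, a transcription factor of differentiating epithelium, was the only 1 of 22 genes of the intestinal transcription factor list with a 0 h-only region (4.55%, 0.115 to 22.8). By comparison, 14 of 29 genes of that list with a strict 72 h peak inside held a 72 h-only region (48.3%, 29.4 to 67.5). The shares of all genes, 13.3% for 0 h-only and 37.2% for 72 h-only regions, lie inside these intervals. The Klf4 region (chr4:55530095-55530695) lay 2.08 kb from the 5′ end, with a gap of 1.71 kb, and its start lay in a peak of both libraries.

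Among genes of chromatin regulation 5 of 18 held a region (27.8%, 9.69 to 53.5). A 72 h-only region was held by 8 of 23 (34.8%, 16.4 to 57.3). The 13.3% and 37.2% of all genes lie inside these intervals. The 5 were the corepressor gene Bcor (gap 2.84 kb), the deacetylase genes Hdac5 (1.60 kb) and Hdac7 (2.05 kb), the acetyltransferase gene Kat6b (4.95 kb) and Tet3, an enzyme of DNA demethylation (1.3 kb). Hdac7 had 2 peaks in the body at 72 h and 5 at 0 h, and 2 of its 4 other starts lay in a 0 h peak and none in a 72 h peak. Of the actomyosin and adhesion list 8 of 40 genes held a region (20.0%, 9.05 to 35.6), and 22 of 46 with a strict 72 h peak inside held a 72 h-only one (47.8%, 32.9 to 63.1). The shares of all genes lie inside these intervals too. Plec, a linker of intermediate filaments, held 2 regions, and the integrin gene Itga6, Myh9, Mylk, Pard3, and the junction genes Jup and Tjp3 were among those that held 1. Ccnd3, a cyclin gene, was 1 of 8 cell cycle genes.

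Of the cilium and sperm tail list 6 of 21 genes held a region (28.6%, 11.3 to 52.2) and 8 of 22 a 72 h-only one (36.4%, 17.2 to 59.3). The 13.3% and 37.2% of all genes lie inside the intervals. The 6 genes were Dnah2, Ccdc192, Ccdc40, Cfap54, Spef2 and Tekt5. The region was the only 0 h peak in Cfap54 (gap 63.1 kb) and in Spef2 (301 kb), and neither body held a 72 h peak. In Dnah2 a pair of overlapping regions lay 2.24 and 2.47 kb from the 5′ end and another lay 117 kb from it.

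Markers of other lineages and cell types were few among the genes that could have been counted. A 0 h-only region lay in Creb3l1 (1 of 3 goblet cell genes with a strict 0 h peak inside), Lmx1a (1 of 2 enteroendocrine genes), Spi1 (1 of 2 immune genes) and Tead1 (1 of 7 fetal and injury genes). It lay in Tek and Vwf (2 of 3 endothelial genes) and in Csmd1 and Lingo2 (2 of 9 neuronal genes). It lay in 0 of 1 tuft cell genes and 0 of 3 fibroblast and muscle genes, and no Paneth cell gene had a strict 0 h peak inside. With these denominators every interval is wide, from 9.43% to 99.2% for the endothelial genes, whose share is to be read beside the 13.3% of all genes. A 72 h-only region lay in 3 of 5 endothelial genes with a strict 72 h peak inside, 6 of 13 neuronal and 2 of 3 immune genes. Genes of these lists thus held regions of both kinds.

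By gene family, 13 of 87 solute carrier genes with a strict 0 h peak inside held a 0 h-only region (14.9%, 8.20 to 24.2), close to the 13.3% of all genes, and 51 of 120 held a 72 h-only region (42.5%, 33.5 to 51.9). Of 69 zinc finger genes of the Zfp series 3 held one, Zfp467, Zfp568 and Zfp704 (4.35%, 0.906 to 12.2), below the 13.3% of all genes. At 72 h 15 of 85 of these zinc finger genes held a 72 h-only region (17.6%, 10.2 to 27.4), likewise below the 37.2% of all genes. Of 11 collagen genes 3 held a 0 h-only region, Col15a1, Col16a1 and Col18a1 (27.3%, 6.02 to 61.0). Of 28 Trim and Rnf ubiquitin ligase genes 5 did, Rnf157, Rnf43, Trim14, Trim2 and Trim71 (17.9%, 6.06 to 36.9).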

How the data were processed

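Accessible chromatin was profiled in 1 library at 72 h and 1 at 0 h. The submitters' processing notes name MACS2 2.2.7.1, bedtools 2.26.0, Bowtie2 2.4.1, cutadapt 1.9.1, Picard 2.18.27, deepTools 3.5.4 and SAMtools 1.3.1 with the mm10 build. Settings, including any Tn5 shift or duplicate removal, were not given in the sources. For each library the authors deposited peak positions at a lenient (1e-05) and a strict (1e-10) p-value threshold, and a list of enriched regions, with no score, so depth is unknown and weak sites can fall on either side of a threshold.

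Overlaps and placement were computed with Python 3.11.15, numpy 2.4.6, pandas 2.3.3 and SciPy 1.17.1 from 1-based coordinates, and were tested on simulated peaks. Gene bodies and transcript starts came from RefSeq tables of GRCm38.p6, without exons. The start table covers 17274 of 21631 protein-coding genes and 356 of 453 hosts; 14 regions on a chromosome it does not cover were left out of start measures. A start lay in a region when it was within 300 bp of the midpoint. A region was assigned to the gene whose body holds its midpoint, with ties broken by the nearest end.

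Genes were named by rule: the 10 hosts with most sites, list genes with a region, the 5 largest and 5 smallest gaps, the 3 peaks on either side of each limit, and the 10 and 5 hosts with most 0 h peaks and no 72 h peak, or with most 72 h-only regions. All 33 hosts with 2 sites tied, and the 10 were taken by number of regions and then in alphabetical order. The named hosts with 2 peaks at 0 h and 0 at 72 h were also the first of a tie in alphabetical order. Regions, lists and tests were chosen with earlier results of these data known. Alternatives varied the overlap, thresholds, distance to gene ends and start distance. Whole-region motifs were not analysed here, and some list genes are not reported here by name.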

Additional observations from a re-analysis of the deposited data

How the results depend on the processing

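The thresholds moved the counts most. With 72 h peaks at 1e-10 deciding what is shared, there were 1234 regions (24.1% of strict 0 h peaks in genes) in 1047 hosts, 145 genes held 2 or more sites, 54.2% of stem cell and Wnt genes and 30.8% of all genes held a region, and 32.6% of hosts had no strict 72 h peak in the body. With 0 h peaks at 1e-05 there were 2928 regions (26.0%) in 2158 hosts, 466 genes held 2 or more sites, the stem cell and Wnt share was 51.5% against 38.6% of all genes, and 5.36% of regions held a transcript start. The 0 h-only share was 10.9% when a peak counted as shared only if at least 50% was covered, and 8.12% when a gap of 1 kb was required. With 1 kb added to the body, 12.8% of hosts had no 72 h peak. The share of regions with several summits in 1 peak could not be measured from peak names, where it was 0.00%; 13.1% had another 0 h peak within 1 kb. The cause of these shifts was not tested, beyond the wider or narrower sets that each setting defines.

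Over the other alternatives the counts stayed within 1.5 times and the shares within their intervals, including the enterocyte share under every setting (18.9% to 33.3%). The share of all genes varied more, from 11.6% to 38.6%. In the main setting the enterocyte share was 21.6% against 13.3% of all genes. It was 29.7% against 30.8% with 72 h peaks at 1e-10, and 33.3% against 38.6% with 0 h peaks at 1e-05. At these 2 thresholds the enterocyte share was thus not above that of all genes. The start share was 6.34% at 150 bp and 8.88% at 500 bp, distances chosen after seeing the data. Of 107 named genes, 21 held no region when a gap of 1 kb was required, 16 when 2 kb to gene ends was, and 14 when ends of all annotated genes counted. No paired analysis was possible because each time point is 1 library, and no replicate could be left out. The planned share of motifs and GC content over whole regions was not run for want of a genome. Depth is unknown, so a missing call does not show closed chromatin.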
